A study of Sus scrofa and Rattus norvegicus with 8 samples.

Results

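The insulin signalling chain was described here as 9 genes that carry the signal from the receptor to its effectors in fat: INSR, IRS1, IRS2, PIK3R1, PIK3CA, AKT1, AKT2, FOXO1 and TBC1D4. They were chosen by pig gene symbol and not by a threshold on their values, but with earlier results of these data known. A gene ID was found for 8 of the 9, out of 14844 named nuclear genes and 25880 gene IDs in all. No gene ID of the pig table carried the symbol AKT1, which therefore has no value here. Expression was measured by RNA-seq of ribosomal RNA-depleted libraries from the upper layer of backfat, the subcutaneous fat under the skin of the back. The 6 libraries form a single group, pig replicates 1 to 6, from adult female Bama pigs aged 2 years with no treatment or genetic change named, so there is no treated group to compare. According to the study's methods, its animals had no feed during the night before slaughter, so the levels belong to that state alone. The labels do not state that each library came from its own pig, and p-values measure only the spread between these libraries. A pair of rat pools of inguinal fat belongs to the same series and was not used here.

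Insulin binds its receptor tyrosine kinase, which phosphorylates the docking proteins IRS1 and IRS2. These recruit PI3-kinase, made of a regulatory subunit such as the product of PIK3R1 and a catalytic subunit such as that of PIK3CA, and the lipid it makes activates the AKT kinases. AKT keeps the transcription factor FOXO1 out of the nucleus and phosphorylates TBC1D4 (also called AS160), a Rab GTPase-activating protein that holds the glucose transporter GLUT4 inside the cell until insulin acts. In fat the chain is known for raising glucose uptake and lipid storage and for restraining lipolysis. RNA levels do not show phosphorylation, which carries most of the signal.

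Levels are given as TPM, transcript abundance corrected for transcript length on a fixed total per library, and as rescaled TPM, in which the named nuclear genes of each library sum to 1000000. Both scales are needed because named nuclear genes held 24.1% to 26.3% of the TPM in replicates 1, 2, 3 and 6 but 3.34% in replicate 4 and 4.73% in replicate 5. Mitochondrially encoded genes held 0.209% and 0.298% in replicates 4 and 5, against 10.8% to 21.2% in the other 4 libraries. Replicates 4 and 5 therefore stand apart from the rest, and the mean rescaled level of each member is also given without them. Within a library the ratio of 2 members is the same on both scales. TPM keeps no read numbers, so the depth is unknown. The tissue label was checked against fixed markers: all 7 adipocyte markers were detected in every library, with a median of their mean levels of 1659 rescaled TPM and FABP4, a fatty acid carrier of adipocytes, highest at 18679. None of the 3 skeletal muscle markers with an ID was detected in every library, and their summed level was 0.887 to 11.0 rescaled TPM. ACTA1 and CKM were over 0.1 TPM in replicates 1, 2, 3 and 6 and fell short only in replicates 4 and 5. Rescaling multiplied TPM by 29.9 and 21.1 there and by 3.80 to 4.15 in the others. A fixed TPM threshold thus asks for a higher rescaled level in replicates 4 and 5.

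All 8 members with an ID were detected, at over 0.1 TPM, in every library, against 67.2% of all named nuclear genes. The median of their mean levels was 24.1 TPM (35.0 without replicates 4 and 5), or 109.6 rescaled TPM, beside 3.30 TPM and 16.7 rescaled TPM over the 14844 named nuclear genes. TBC1D4, AKT2 and PIK3R1 were the most abundant and IRS1 the least, so that the mean rescaled levels spanned 24.3 to 388. At over 1 TPM 7 of the 8 were detected in every library, the exception being IRS1, which fell short in replicates 4 and 5 alone. The share of all named nuclear genes at that threshold is not given here, so the count cannot be set against it.

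**Figure D1:**
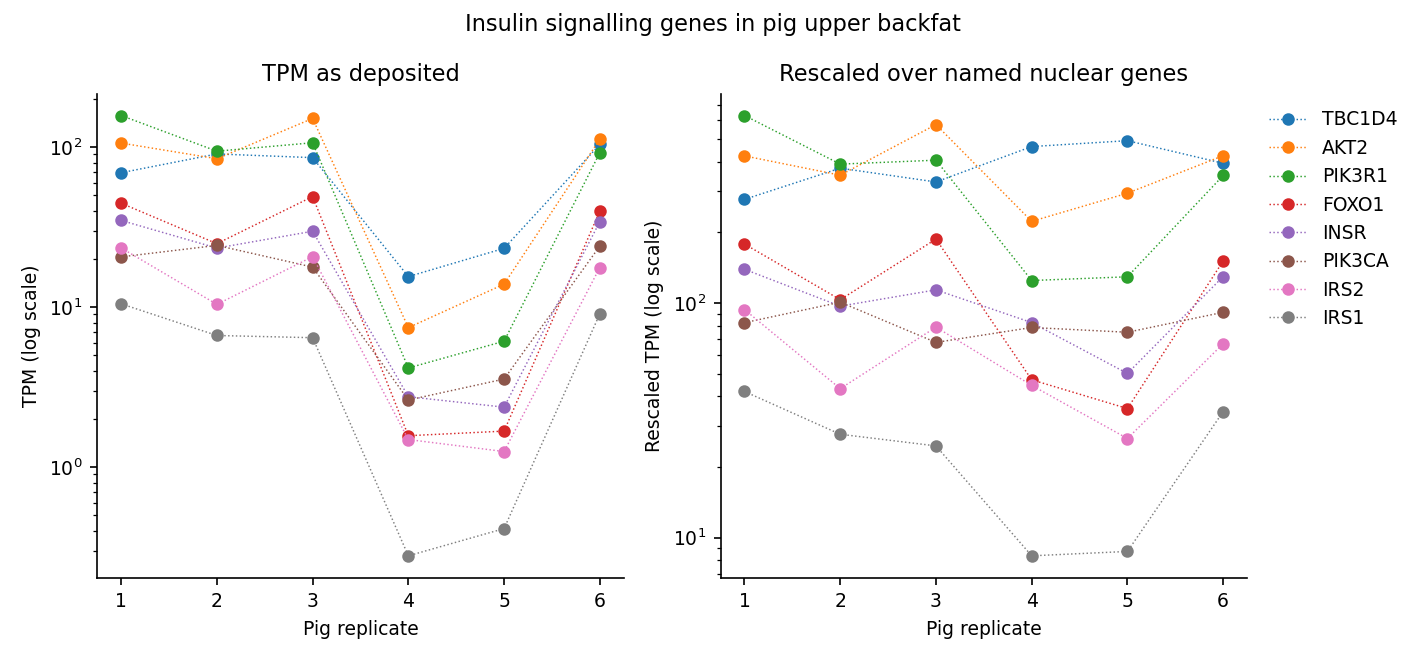
TPM as deposited (left) and rescaled TPM (right), both on log axes, of the 8 members in each of the 6 pig replicates; each colour is a gene, and the dotted lines only join one gene's values, since replicates have no order. As deposited, every member is lowest in replicates 4 and 5, whereas after rescaling TBC1D4 is highest there, at 464 and 492.

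INSR, the insulin receptor (ENSSSCG00000013566), lies on chromosome 2 of Sscrofa11.1 from 71797209 to 71939923 on the plus strand, and its longest RefSeq transcript has 22 exons. Its level was 34.8, 23.4, 29.8, 2.75, 2.37 and 34.2 TPM in replicates 1 to 6, a mean of 21.2 ± 15.0 (SD, n = 6), or 30.5 without replicates 4 and 5. Rescaled, it was 139, 97.0, 114, 82.5, 50.1 and 129.7. Replicates 4 and 5 were lowest on both scales, but the gap to the next library was far smaller after rescaling. The rescaled mean was 102 ± 32.8 (SD, n = 6) and 119.9 without replicates 4 and 5, which placed INSR above 87.1% of named nuclear genes.

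The docking proteins differed in level. IRS1 (ENSSSCG00000025729; chromosome 15, 128245846 to 128307321, minus strand, 2 exons of which 1 is coding) was at 10.5, 6.65, 6.44, 0.279, 0.413 and 9.07 TPM in replicates 1 to 6. Rescaled, it was 42.0, 27.6, 24.6, 8.36, 8.73 and 34.4, with a mean of 24.3 ± 13.6 (SD, n = 6) or 32.1 without replicates 4 and 5. It was the least abundant member in each of the 6 libraries, and replicates 4 and 5 lay well under the rest. IRS2 (ENSSSCG00000034763; chromosome 11, 76626158 to 76654639, minus strand, 3 exons) was at 23.4, 10.4, 20.7, 1.49, 1.25 and 17.7 TPM. Rescaled, it was 93.8, 43.1, 78.9, 44.5, 26.4 and 67.1, with a mean of 59.0 ± 25.3 (SD, n = 6) or 70.7 without replicates 4 and 5. Here replicate 2 was as low as replicate 4. IRS2 exceeded IRS1 in 6 of 6 libraries, by 2.23, 1.56, 3.21, 5.33, 3.03 and 1.95 times in replicates 1 to 6 (mean log2 difference 1.36 ± 0.58 SD; exact two-sided sign-flip permutation test, p = 0.03125, adjusted p = 0.0417). That p is the smallest 6 libraries allow.

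The 250 bases before the RefSeq start of these 3 genes are shown because INSR and IRS2 are textbook targets of FOXO factors, a feedback by which the end of the chain acts on its beginning. They are from RefSeq on Sscrofa11.1, written 5′ to 3′ on each gene's strand. Capitals mark the forkhead motif TGTTTAC in INSR (chr2:71796959-71797208) and GC boxes, GGGCGG or its reverse complement, in IRS1 (chr15:128307322-128307571) and IRS2 (chr11:76654640-76654889).
INSR: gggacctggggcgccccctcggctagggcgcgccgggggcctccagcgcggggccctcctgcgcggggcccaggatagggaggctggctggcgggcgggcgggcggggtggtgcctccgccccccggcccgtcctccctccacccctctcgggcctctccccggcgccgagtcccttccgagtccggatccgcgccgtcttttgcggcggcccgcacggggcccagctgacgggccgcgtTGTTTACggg
IRS1: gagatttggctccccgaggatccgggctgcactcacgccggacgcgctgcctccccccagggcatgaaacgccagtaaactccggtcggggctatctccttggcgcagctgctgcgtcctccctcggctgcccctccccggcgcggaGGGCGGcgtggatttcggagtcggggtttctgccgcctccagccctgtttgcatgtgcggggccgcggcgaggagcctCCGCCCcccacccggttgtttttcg
IRS2: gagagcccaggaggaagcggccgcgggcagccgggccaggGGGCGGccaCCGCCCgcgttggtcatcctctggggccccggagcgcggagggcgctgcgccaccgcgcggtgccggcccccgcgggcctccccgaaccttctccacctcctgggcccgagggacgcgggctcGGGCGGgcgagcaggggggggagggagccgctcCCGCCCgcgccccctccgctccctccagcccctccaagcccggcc
The forkhead motif began 10 bases before the annotated start of INSR. On either strand, TGTTTAC was found in 2.31% of 20625 such windows and, among the 9 members, in INSR alone. TGTTTTG, the core of the insulin response element, was in 4.30% of windows and in 0 of the 9. GGGCGG was in 44.5% of windows and in 6 of the 9: INSR (4 matches, not capitalised above), IRS1 (2), IRS2 (4), PIK3R1 (5), AKT1 (12) and FOXO1 (1). Overlapping GC boxes were counted each. A match is a description, not a bound site.

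The regulatory subunit of PI3-kinase was above its catalytic partner in every library. PIK3R1 (ENSSSCG00000016958; chromosome 16, 46434757 to 46523626, plus strand, 10 exons in the longest transcript) was at 157, 94.2, 106, 4.16, 6.12 and 92.1 TPM. Rescaled, it was 629.8, 391, 406, 125, 129 and 349.6, with a mean of 338 ± 191 (SD, n = 6) or 444 without replicates 4 and 5. The other 4 libraries were at least at 349.6, so replicates 4 and 5 fell clear of them, and replicate 1 was the highest. PIK3CA (ENSSSCG00000030413; chromosome 13, 117193935 to 117282151, plus strand, 21 exons) was at 20.6, 24.3, 17.8, 2.63, 3.55 and 24.1 TPM. Rescaled, it was 82.4, 101, 67.9, 78.6, 75.0 and 91.3, with a mean of 82.7 ± 11.8 (SD, n = 6) or 85.6 without replicates 4 and 5. Replicates 4 and 5 lay inside the range of the others on that scale. PIK3R1 exceeded PIK3CA 7.64, 3.88, 5.98, 1.59, 1.72 and 3.83 times in replicates 1 to 6 (mean log2 difference 1.80 ± 0.92 SD; same exact permutation test, adjusted p = 0.0417).

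AKT2, the AKT kinase best known for glucose uptake in fat and muscle (ENSSSCG00000002989; chromosome 6, 48555785 to 48620472, minus strand, 15 exons of which 11 are coding), was at 106, 84.5, 151, 7.44, 13.9 and 112 TPM. Rescaled, it was 424, 351, 576, 223, 294 and 425, with a mean of 382 ± 123 (SD, n = 6) or 444 without replicates 4 and 5. Replicate 3 was highest, and replicates 4 and 5 were under the other 4. The share of AKT1 is not known here.

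FOXO1 (ENSSSCG00000009370; chromosome 11, 15317222 to 15410059, minus strand, 3 exons of which 2 are coding) was at 44.6, 24.9, 49.0, 1.57, 1.68 and 39.8 TPM. Rescaled, it was 178, 103, 187, 47.1, 35.5 and 151, with a mean of 117 ± 65.7 (SD, n = 6) or 155 without replicates 4 and 5. Replicates 4 and 5 lay far below the lowest of the rest. Its paralogue FOXO3 was at 154, 75.4, 107, 68.7, 53.0 and 124 rescaled TPM. FOXO1 was the higher of the pair in 4 of 6 libraries, all but replicates 4 and 5, and the difference did not pass the test (mean log2 difference 0.11 ± 0.55 SD; exact permutation test, p = 0.688, adjusted p = 0.733).

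TBC1D4 (ENSSSCG00000009464; chromosome 11, 47543808 to 47760928, minus strand, 20 exons) was at 69.1, 90.5, 85.9, 15.5, 23.3 and 104 TPM. Rescaled, it was 277, 376, 328, 464, 492 and 394, with a mean of 388 ± 81.1 (SD, n = 6) or 344 without replicates 4 and 5. It was the member that ran the other way after rescaling, with replicates 4 and 5 above all others. Its paralogue TBC1D1, the form better known from muscle, was at 25.2 to 63.5 rescaled TPM, and TBC1D4 exceeded it by 5.32 to 19.5 times in 6 of 6 libraries (mean log2 difference 3.11 ± 0.74 SD; exact permutation test, adjusted p = 0.0417). SLC2A4, which encodes GLUT4 itself, was at 37.9, 19.8, 49.1, 73.6, 68.3 and 25.7 rescaled TPM and was likewise highest in replicates 4 and 5 after rescaling, median-centring and quantile normalization, and lowest there as deposited and without mitochondrial genes. At the other end of the chain, INSR exceeded IGF1R, the receptor for IGF1, by 1.58 to 5.37 times in 6 of 6 libraries (mean log2 difference 1.50 ± 0.65 SD; exact permutation test, adjusted p = 0.0417).

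The order of the levels fell into 3 tiers. TBC1D4, AKT2 and PIK3R1 held the first 3 places in every library, PIK3R1 leading in replicates 1 and 2, AKT2 in 3 and 6 and TBC1D4 in 4 and 5. FOXO1, INSR, PIK3CA and IRS2 followed, and IRS1 was last. Of the 28 pairs of members 21 differed in the same direction in 6 of 6 libraries and passed the exact two-sided permutation test of log2(rescaled TPM + 1) differences, each at p = 0.03125 and adjusted p = 0.0417 over 32 pairs (Benjamini-Hochberg). The planned family held 40 pairs, and with the 8 pairs of AKT1, which have no value, counted as not passing, the smallest adjusted p is 0.0521 and 0 pairs pass. What AKT1 would have given is not known. The 7 pairs that did not pass, at adjusted p of 0.160 to 0.938, were the 3 pairs within the first tier, every pair among FOXO1, INSR and PIK3CA, and PIK3CA with IRS2. Neighbours in those groups did not differ beyond their spread: TBC1D4 to AKT2, for example, was 0.653, 1.07, 0.569, 2.08, 1.67 and 0.928 in replicates 1 to 6. FOXO1 and INSR each exceeded IRS2 in 6 of 6 libraries.

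**Figure D2:**
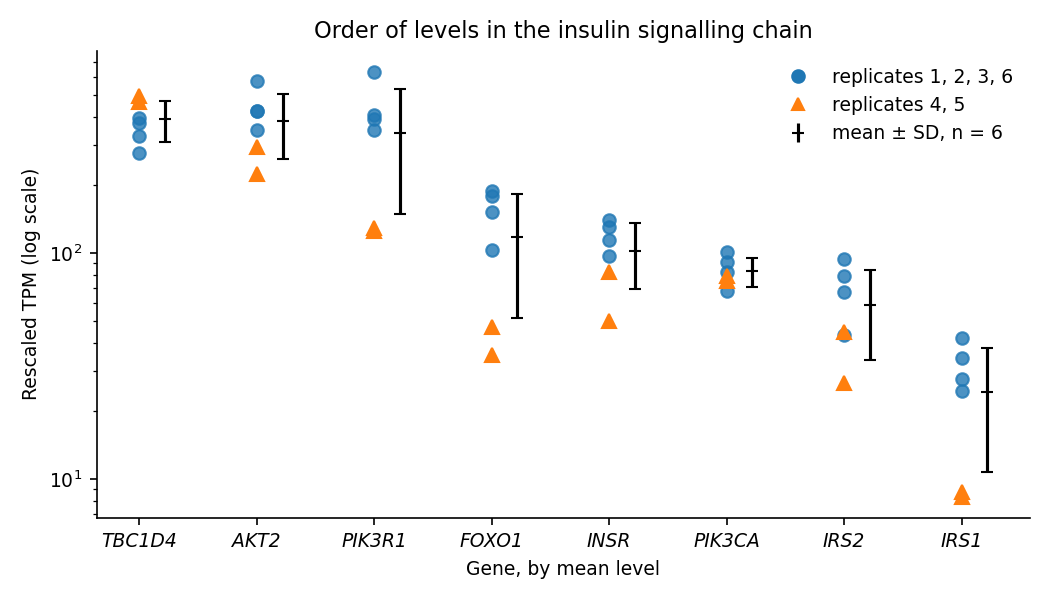
Rescaled TPM (log axis) of each member in the 6 libraries, ordered by mean level, with circles for replicates 1, 2, 3 and 6, triangles for replicates 4 and 5, and black bars for the mean ± SD (n = 6). The first 3 genes lie above the rest in each library, from a mean of 388 for TBC1D4 to 338 for PIK3R1, and IRS1 lies lowest at 24.3.

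Ratios between members differed in how far they moved between libraries. PIK3R1 to IRS1 was 15.0, 14.2, 16.5, 14.9, 14.8 and 10.2 in replicates 1 to 6, the smallest spread of the 28 pairs (SD 0.23 on the log2 scale), although both genes varied widely. INSR to IRS2 was 1.48, 2.25, 1.44, 1.85, 1.89 and 1.93 (SD 0.24). For both pairs the ratios in replicates 4 and 5 lay inside the range of the other libraries. By contrast TBC1D4 to FOXO1, a pair of AKT substrates, was 1.55, 3.64, 1.75, 9.87, 13.9 and 2.61 (SD 1.30), the widest of the 28. FOXO1 to INSR was 1.28, 1.07, 1.65, 0.571, 0.709 and 1.16, above 1 in 4 libraries and below 1 in replicates 4 and 5. A ratio of 2 named genes is the same as deposited and rescaled, but not after removal of a trend on transcript length and GC content, given below.

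**Figure D3:**
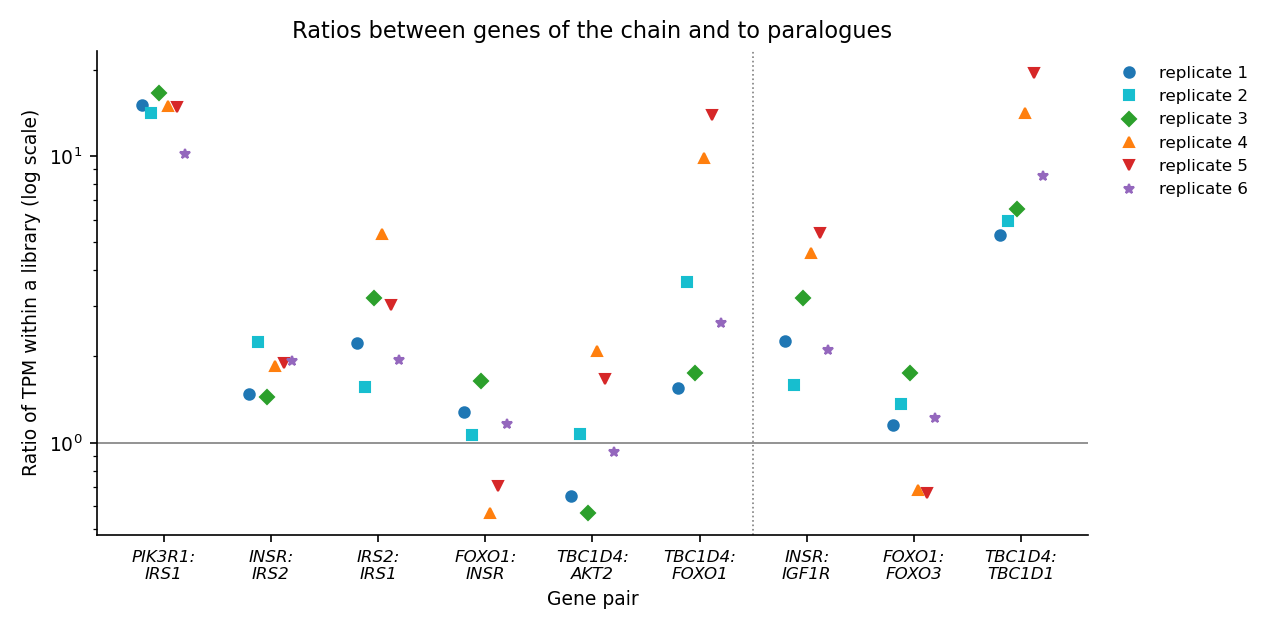
Ratio of the TPM of 2 genes within each library (log axis) for 6 pairs of members, left of the dotted line, and 3 pairs of a member with a paralogue, right of it; each marker is a replicate and the grey line is a ratio of 1. PIK3R1:IRS1 stays between 10.2 and 16.5, and TBC1D4:FOXO1 ranges from 1.55 to 13.9.

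The spread between libraries differed between members. The coefficient of variation (CV, SD over mean) of rescaled TPM over the 6 libraries was lowest for PIK3CA at 0.143, at percentile 10.4 among the 12130 named nuclear genes with a mean of at least 1, and TBC1D4 followed at 0.209. AKT2 (0.321) and INSR (0.322) were near the median of all those genes, 0.327. IRS2 was at 0.428, and IRS1 (0.559), FOXO1 (0.561) and PIK3R1 (0.563) were at percentiles 84.3, 84.5 and 84.7. The median CV of the members was 0.375 rescaled and 0.748 as deposited, where all genes had 0.688. Without replicates 4 and 5 the members' rescaled CVs were 0.153 for TBC1D4, 0.155 for INSR, 0.163 for PIK3CA, 0.214 for AKT2, 0.241 for IRS1, 0.244 for FOXO1, 0.284 for PIK3R1 and 0.302 for IRS2. Their median fell from 0.375 to 0.227, as that of all 12130 genes fell from 0.327 to 0.188.

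In replicates 4 and 5 the direction in which a member moved depended on the scale. As deposited all 8 members were below the other 4 libraries in both, as were 98.2% of all genes, here the 12130 with a mean rescaled level of at least 1. After rescaling, where the median of all genes shifted by -0.50 on the log2 scale, 5 members were below (INSR, IRS1, PIK3R1, AKT2 and FOXO1) against 50.1% of all genes, TBC1D4 was above against 10.4%, and IRS2 and PIK3CA overlapped. After centring each library on its median gene 3 members were below (IRS1, PIK3R1 and FOXO1) against 25.4% and 2 above (PIK3CA and TBC1D4) against 31.2%. IRS1, PIK3R1 and FOXO1 were thus below under each of the 5 scalings tried. So were 98.2% of all genes as deposited, 98.5% without mitochondrial genes and 25.8% after quantile normalization. The share of all genes below under all 5 is not given here. TBC1D4 was above after rescaling, median-centring and quantile normalization, against 27.4% of all genes in the last. It was below as deposited and without mitochondrial genes. Relative to the other 4 libraries, the mean rescaled level in replicates 4 and 5 was 0.266 times for IRS1, 0.266 for FOXO1, 0.286 for PIK3R1, 0.502 for IRS2, 0.553 for INSR, 0.582 for AKT2, 0.898 for PIK3CA and 1.39 for TBC1D4. The median ratio over 12130 genes was 0.681. These are descriptions with no test, since the labels do not separate replicates 4 and 5 from the rest.

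Several other measurements moved with these libraries. A gene's deviation from its own median correlated across genes with transcript length at a Spearman coefficient of -0.216 in replicate 4 and -0.331 in replicate 5, against -0.00410 to 0.238 in the others, over the 11250 genes with a RefSeq length. With a trend on length and GC content removed from each library, an alternative chosen after seeing the data, the mean deviation in replicates 4 and 5 went from -1.50 to -0.86 for IRS1, from -1.53 to -0.97 for PIK3R1, and from 0.31 to 1.05 for TBC1D4 (log2). FOXO1 deviated by -1.39 and -1.79 in these libraries with the trend kept, and by -0.84 and -1.16 with it removed. For INSR, IRS2, AKT2 and PIK3CA it changed sign, to 0.15, 0.15, 0.31 and 0.24. Removing the trend also removed each library's median deviation, which was -0.31 in replicate 4 and -0.36 in replicate 5. Relative to that median alone PIK3CA was already at 0.27 and 0.26, whereas INSR was at -0.04 and -0.69. IRS2 was at 0.02 and -0.66 and AKT2 at -0.48 and -0.03 on that measure. How much of each change belongs to length, to GC content or to the library median was not tested. Summed endothelial markers were at 616 and 731 rescaled TPM in replicates 4 and 5 against 1085 to 1312 in the others, and summed macrophage markers at 364 and 215 against 459 to 599. Summed smooth muscle markers were at 451 and 436 against 530.3 to 898, and summed stromal markers at 9553 and 16780 against 14721 to 28151. On the same scale the median ratio of replicates 4 and 5 to the other 4 libraries was 0.681 over 12130 genes. Of those genes 50.1% lay below in both, so a lower sum is not particular to these markers. Summed adipocyte markers were at 27142 and 36395 against 19451 to 34028, a sum made up mostly of FABP4 (20000 and 28926 in replicates 4 and 5). The median of the 7 adipocyte markers ran the other way, at 1351 and 1247 against 1506 to 1973, with PLIN1, LIPE and PPARG below the other 4 libraries in both and CIDEC above, on the rescaled TPM. In such bulk samples fewer cells of a type and less RNA per cell cannot be told apart, and the part of cell makeup in the members' levels was not tested.

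**Figure D4:**
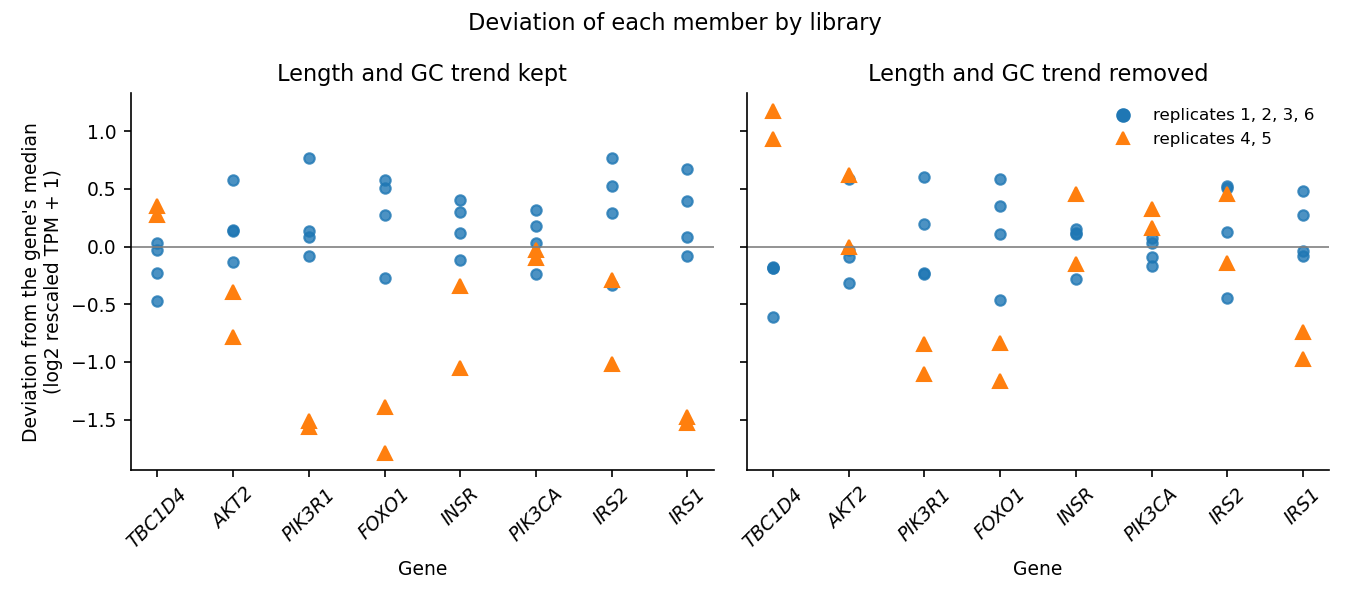
Deviation of each member from its own median over the 6 libraries, on log2(rescaled TPM + 1), with the length and GC trend of each library kept (left) or removed (right); circles are replicates 1, 2, 3 and 6 and triangles replicates 4 and 5. PIK3R1, FOXO1 and IRS1 lie lowest in replicates 4 and 5 in both panels and TBC1D4 highest. On the right, where each library's median deviation is removed too, the triangles of IRS2 lie among its circles. Both triangles of PIK3CA lie above its circles there, at 0.16 and 0.32. INSR in replicate 4 and AKT2 in replicate 5 also lie above theirs, at 0.45 and 0.62.

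The rest of the pathway was read from 6 gene lists with 89 gene symbols, of which 85 had an ID and 78 were detected in every library. At the receptor level 14 of 16 were detected in every library (not INSRR or IRS4), with a median mean of 42.2 rescaled TPM and a range from IRS4 at 0.0279 to CAV1, the coat protein of caveolae, at 1228. INSR lay above that median and IRS1 below it. At the PI3-kinase level 8 of 11 with an ID were detected throughout (not PIK3CD, PIK3R2 or PIK3R3) with a median of 20.6, from PIK3R5 at 5.91 to PIK3C2A, a class II PI3-kinase, at 149. PIK3R2 and PIK3R3 fell short of 0.1 TPM in replicate 4 alone and PIK3CD in replicate 5 alone. In replicates 1, 2, 3 and 6 all of them were at 7.56 rescaled TPM or more. Both PIK3R1 and PIK3CA lay above the median, and the mean of PIK3R1 was above that of every gene of the list, although PIK3C2A was the higher in replicate 4 (146 against 125).

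At the AKT level all 19 genes with an ID were detected throughout, with a median of 57.3, from MLST8, a subunit of the mTOR complexes, at 6.63 to RHEB, the GTPase that activates mTOR complex 1, at 308. The mean of AKT2 was above those of all 19, although RHEB was the higher in replicates 4 and 5 (398 and 396 against 223 and 294). Of the FOXO family and its partners 8 of 9 were detected throughout (not FOXO6, at 0.0755), with a median of 85.2 and YWHAZ, a 14-3-3 protein, highest at 1201. Of the textbook FOXO target genes 14 of 15 with an ID were detected throughout, with a median of 96.7, from IGFBP1 at 2.03 to TXNIP, an inhibitor of glucose uptake, at 1563. All 15 genes of GLUT4 traffic were detected throughout, with a median of 48.7, from STX4 at 24.5 to RHOQ, a GTPase of the insulin response, at 515, and the mean of TBC1D4 was below that of RHOQ alone. In replicates 4 and 5, on the rescaled TPM, 57 of the 85 listed genes were below the other 4 libraries and 5 above, beside 50.1% and 10.4% of all genes. All genes are here the 12130 with a mean of at least 1, a filter not set on the listed genes. INSRR and FOXO6, with means of 0.236 and 0.0755, are among the 57. As deposited 83 were below, beside 98.2% of all genes. After median-centring 34 were below and 17 above, beside 25.4% and 31.2% of all genes.

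**Figure D5:**
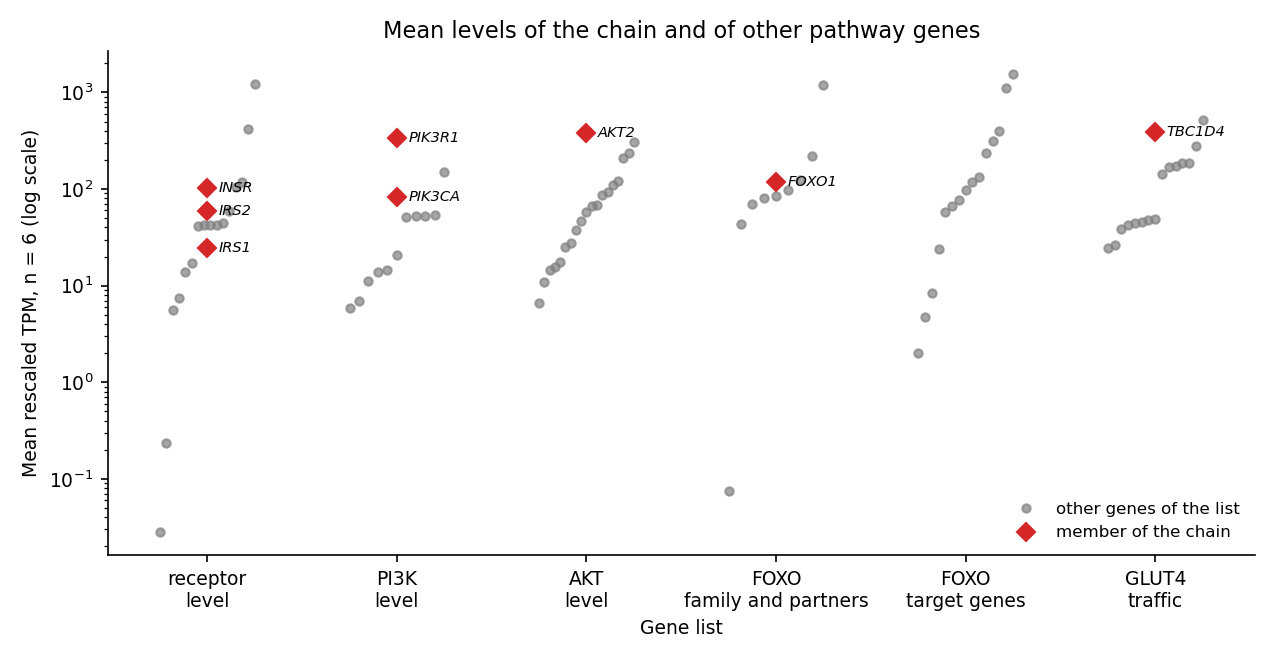
Mean rescaled TPM over the 6 libraries (log axis) of each gene of the 6 pathway lists (grey circles, ordered by level within a list) and of the members (red diamonds) placed beside the list of their step. The means of AKT2 at 382 and PIK3R1 at 338 lie above those of every other gene of their lists, and IRS1 at 24.3 lies under the median of the receptor list.

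The genes whose profile across the 6 libraries was most like that of INSR were DPH6, PPM1L and CEP170B, at root-mean-square distances of 0.0636, 0.0705 and 0.0809 on centred log2(rescaled TPM + 1). The median distance over 8865 genes with a mean of at least 10 was 0.47. Among the members IRS2 was nearest to INSR at 0.218, rank 358, and TBC1D4 farthest at 0.738, rank 7616. These distances are descriptions over 6 libraries that share the difference of replicates 4 and 5.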

How the data were processed

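Total RNA was depleted of ribosomal RNA, made into stranded libraries and sequenced on an Illumina instrument. Kallisto 0.43.0 gave transcript abundances, and the authors deposited them as gene-level TPM in a table per species; Sscrofa11.1 is the pig build named in the submitters' processing notes. The table of the 2 rat libraries, pools from another depot with separate normalization, was not used. TPM keeps no read numbers, so precision comes only from the spread between the 6 libraries.

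Pig IDs were named by a name table (14857 of 25880, 57.4%), of which 13 were mitochondrial. Rescaled TPM set the 14844 named nuclear genes of each library to a sum of 1000000. Gene pairs were compared within libraries by an exact two-sided sign-flip permutation test of log2(rescaled TPM + 1) with Benjamini-Hochberg adjustment over 32 pairs at a threshold of 0.05, checked on simulated data. The trend on transcript length and GC was the median deviation of genes in 10 by 10 bins, so its removal also took out each library's median deviation. Coordinates, transcripts and the 250 bases before each start came from RefSeq on Sscrofa11.1, searched on both strands. Analysis used Python 3.11.15 with pandas 2.3.3, numpy 2.4.6 and scipy 1.17.1.

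The members and lists were chosen with earlier results of these data known. Named genes were the members, the highest and lowest gene of each list, the paralogues of the pair tests, SLC2A4, and the 3 genes nearest to INSR. A planned comparison of protein sequences was not made here. The result for 1 of the paralogue pairs in the tested family is not reported here. Alternatives were other scalings, thresholds and pseudocounts, a signed-rank test and leaving out libraries.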

Additional observations from a re-analysis of the deposited data

Results flagged for a closer look

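Of 48 sets of 6 values examined (levels of the members and ratios of pairs), 2 held a library far from the others by Dixon's criterion, which chance meets in about 1 in 20 sets. The ratio of PIK3R1 to IRS1 was 10.2 in replicate 6 and 14.2 to 16.5 in the other libraries. The ratio of INSR to IRS1 was 9.86 in replicate 4 and 3.32 to 5.74 in the other libraries.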

How the results depend on the processing

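The median of the members' mean levels was 24.1 TPM as deposited and 109.6 after rescaling, and 20.9 to 28.5 with each library left out in turn. Rescaling raises every level by construction. Leaving out any 1 library moved the mean of no member and the median of no pathway list beyond the SD between libraries. For the means this was fixed in advance, because dropping 1 of 6 values cannot shift a mean by the SD of those values. It is therefore no test of how stable the means are. The median CV of the members was 0.748 as deposited, 0.375 after rescaling, 0.371 after median-centring, 0.317 after quantile normalization and 0.242 as deposited without replicates 4 and 5 together. With each library left out in turn it was 0.562 to 0.877, at 0.562 without replicate 4 and 0.585 without replicate 5. The 21 pairs that differed numbered 21 under both other pseudocounts, on the deposited TPM and by the signed-rank test. That was fixed in advance too, because a pair passes only if all 6 differences have one sign. None of these changes can alter a sign, so they do not test how stable the pairs are. The pairs numbered 0 when adjusted over the 40 planned pairs with the 8 unmeasured pairs counted as not passing. With 5 libraries the smallest p is 0.0625, so the pair test was not run with a library left out. The pairs of one sign in every library were then 21 each time, and 23 without replicates 4 and 5. Leaving libraries out cannot lower that count. The length and GC trend was removed together with each library's median deviation. The mean log2 deviation in replicates 4 and 5 then went from -0.70 to 0.15 for INSR and from -0.66 to 0.15 for IRS2. For AKT2 it went from -0.59 to 0.31, and it moved for the other 5 members. The cause was not tested. No paired analysis was possible because the pig libraries form a single group, and the numbers they share with the rat pools mark no common animal.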

Other observations

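A pair of genes from the pathway lists, chosen after their values were seen, stood high in replicate 2. PCK1, a gluconeogenic and glyceroneogenic enzyme and textbook FOXO target, was at 92.2 rescaled TPM there and at 6.20 to 19.4 in the other 5 libraries. PIK3R3, another regulatory subunit of PI3-kinase, was at 49.2 there and at 1.90 to 12.1 in the others, while PIK3R1 was at 391 in that library, inside its range of 125 to 629.8. Some markers of other cells were also highest in that library. The smooth muscle markers ACTA2 and CNN1 were at 458 and 60.5 there, against 74.2 to 248 and 7.92 to 52.3. The skeletal muscle markers ACTA1 and TNNT3 were at 6.36 and 2.79, against 0.292 to 1.51 and 0 to 0.519. The other markers of those lists with an ID were highest elsewhere: MYH11 in replicate 1, TAGLN in replicate 4 and CKM in replicate 6. The part of such cells in the levels of PCK1 and PIK3R3 was not tested.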
